A study of Mus musculus with 15 samples.

Results

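Prostaglandins are made and removed inside tissues by a short chain of enzymes, and the genes of that chain were followed here in stromal, endothelial and epithelial cells sorted from mouse white adipose tissue (WAT) and lung. The set holds 7 genes picked by symbol, namely Ptgs1, Ptgs2, Ptges, Ptgis, Ptgds, Ptgfr and Hpgd. The table of expression values covered 12698 transcripts of 10222 genes, and 6 of the 7 genes were in it, each as a single transcript. Ptgds, the lipocalin-type prostaglandin D synthase, was not among those genes and was not analysed here.

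The study asked which cells of adipose tissue produce IL-33 and how they sustain group-2 innate lymphoid cells. RNA was sequenced from 5 sorted populations with 3 libraries each, the replicates coming from independent experiments. All mice were C57BL/6 IL33-citrine reporter animals, heterozygous for a citrine reporter of Il33. The study's methods describe the stromal cells as taken from naive mice, and the sources used here give no age or number of animals per library. Il33+ WAT-MSC and Il33- WAT-MSC are mesenchymal stromal cells of mesenteric white adipose tissue, with and without the citrine signal. They were sorted as cells positive for PDGFRα, CD34, Sca1 and Podoplanin that lacked CD45, Epcam, CD31, CD24 and lineage markers. Lung Il33+ MSC are the citrine-positive stromal cells of the lung. WAT endothelial cells carried CD31 and lacked Epcam and CD45, and lung epithelial cells carried Epcam and lacked CD45. The citrine gate separates cells by reporter protein at the time of sorting, so Il33- cells are cells without that protein and not a separate lineage by definition. Il33 RNA was at 38.7, 78.5 and 41.9 RPKM in Il33+ WAT-MSC, 4.31 to 6.76 RPKM in Il33- WAT-MSC, 43.0 to 55.7 RPKM in lung Il33+ MSC, 15.1 to 21.4 RPKM in endothelium and 3.92 to 6.40 RPKM in epithelium, so every Il33+ stromal library lay above every other library.

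Prostaglandin synthesis starts when phospholipases free arachidonic acid from membrane lipids. The cyclooxygenases COX-1 (Ptgs1, expressed steadily in many tissues) and COX-2 (Ptgs2, induced rapidly by cytokines, growth factors and tissue injury) convert it to the unstable intermediate prostaglandin H2. Terminal synthases then fix the product: Ptges gives prostaglandin E2, Ptgis gives prostacyclin and Ptgds gives prostaglandin D2. Ptgfr encodes the receptor for prostaglandin F2α, and Hpgd encodes 15-hydroxyprostaglandin dehydrogenase, which starts the inactivation of prostaglandins E2 and F2α. In adipose tissue prostaglandin E2 and prostacyclin are known to act on lipolysis and on precursor differentiation, and the lung is a main site of prostaglandin clearance.

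Values are RPKM, in which the reads of a transcript are divided by its length and by the mapped reads of the library, so levels of different genes can be set side by side per length. Alignments ranged from 42711843 to 60773158 per library. Differences were tested with limma on log2(RPKM + 1), which understates the change of genes near 1 RPKM, and a gene was tested where no fewer than 3 of the 6 libraries reached 1 RPKM. A difference was called at a Benjamini-Hochberg adjusted p below 0.05. The marker genes matched the labels in part: 10 stromal markers summed to between 4550 and 9536 RPKM in the stromal libraries, 10 epithelial markers summed to at least 162127 RPKM in the epithelial libraries and 10 endothelial markers summed to between 599 and 732 RPKM in the endothelial libraries. The endothelial libraries also held stromal markers, at 2004 to 4059 RPKM against 112 to 200 RPKM in epithelium, together with pericyte and smooth muscle markers at 200 to 281 RPKM. The epithelial libraries also held macrophage markers, 11 of which summed to between 766 and 1431 RPKM. The same markers were at 212 to 266 RPKM in lung Il33+ MSC and 9.96 to 17.8 RPKM in Il33+ WAT-MSC. The part of macrophage RNA in the epithelial levels given below was not tested. Replicate 1 of the endothelium stood apart, with correlations of 0.773 and 0.774 to replicates 2 and 3, which correlated at 0.918, while replicates of the other populations correlated at 0.868 or more. In bulk RNA a lower share of cells expressing a gene and less RNA in each cell cannot be told apart.

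Ptgs2 was the most abundant member in every library and had its highest means in the Il33+ stroma of lung and fat, while Ptgs1 was highest in WAT endothelium and Il33+ WAT-MSC. Ptges and Ptgis were high in the stromal populations of both tissues and lowest in lung epithelium, Ptgfr was high in lung stroma alone among the 5 populations, and Hpgd had no clear order. A test of each gene over all 5 populations at once, the limma F test on 15 libraries, called 5 of the 6 members, against 42.7% of the 9981 genes tested. The adjusted p-values were 6.57e-07 for Ptgfr, 2.89e-06 for Ptgs2, 0.00017 for Ptges, 0.000221 for Ptgis and 0.000429 for Ptgs1. Hpgd was the exception, with an adjusted p of 0.537. The same 5 members passed this test under every alternative setting that was tried, each library left out in turn included.

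**Figure D1:**
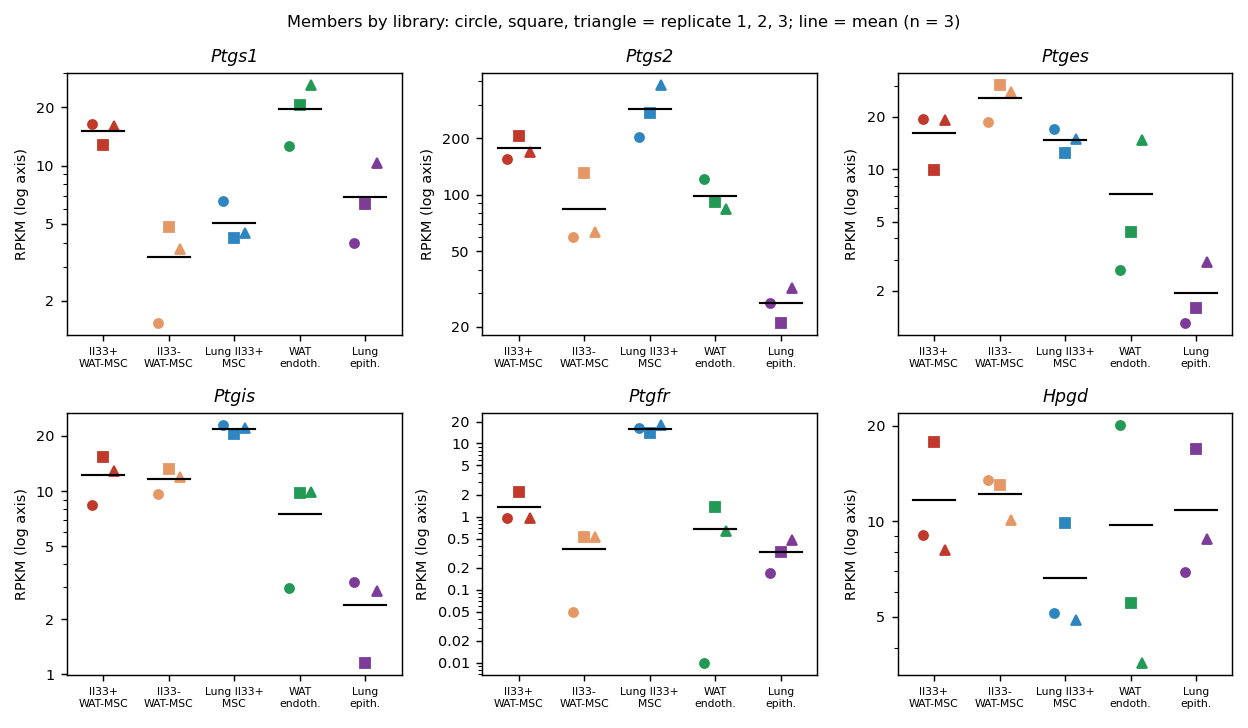
RPKM of the 6 members in each of the 15 libraries, on a log axis, by population; symbols mark replicates 1, 2 and 3 and the horizontal line is the mean of 3 libraries. Ptgs2 lies between 20.9 and 382 RPKM, and Ptgfr reaches 13.9 to 17.9 RPKM in lung Il33+ MSC while no other library is above 2.18 RPKM.

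Between populations the members were called as follows. Il33+ WAT-MSC differed from Il33- WAT-MSC in 1 of the 5 members tested, Ptgs1, where 1.57% of all genes tested were called. Il33+ WAT-MSC differed from lung Il33+ MSC in 2 of 6, Ptgs1 and Ptgfr, where 6.00% of genes were called, 2.50% higher and 3.50% lower in Il33+ WAT-MSC. Against WAT endothelium limma called 0 of 5, with 2 members at an unadjusted p below 0.05, and 3.90% of all genes were called. Without replicate 1 of the endothelium 0 members and 254 genes were called, and over the libraries left out in turn the share of calls higher in Il33+ WAT-MSC ran from 0.61% to 51.3%, the latter without replicate 3 of the endothelium. Against lung epithelium 4 of 5 members were called for Il33+ WAT-MSC and 4 of 6 for lung Il33+ MSC, all higher in stroma. These last counts stand beside backgrounds of 41.0% and 43.0% of all genes called, with 23.0% and 24.4% higher in stroma. The first 4 comparisons share the Il33+ WAT-MSC libraries, and the last 2 share the epithelial libraries.

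**Figure D2:**
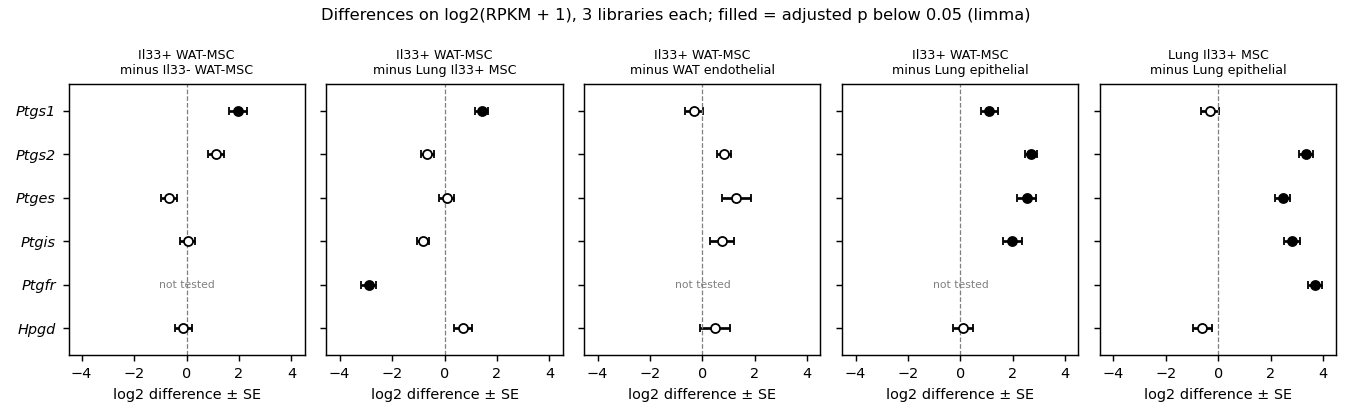
Log2 differences of the members in the 5 comparisons, on log2(RPKM + 1), first population minus second, with bars of 1 standard error; filled points have an adjusted p below 0.05 and "not tested" marks genes under the filter. Ptgs2 is at 2.69 and 3.35 in the stroma against epithelium comparisons, and Hpgd is unfilled in all 5 panels.

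Ptgs1 encodes COX-1, the cyclooxygenase regarded as the steadily expressed form (gene at chr2:36216742-36258593, plus strand, GRCm38). It was measured at 16.5, 12.8 and 15.98 RPKM in the 3 Il33+ WAT-MSC libraries. The Il33- WAT-MSC libraries gave 1.54, 4.83 and 3.69 RPKM. All Il33+ libraries therefore lay above all Il33- libraries, with means of 15.1 ± 2.02 and 3.35 ± 1.67 RPKM (SD, n = 3). Of all genes tested in this comparison, 17.5% did not overlap. The difference was 1.96 on the log2 scale (SE 0.34, limma adjusted p = 0.0166), and it was 2.01 among the libraries of lane 1 and 1.86 among those of lane 2. The call rested on few libraries, since the adjusted p was 0.0845 without replicate 1 and 0.0895 without replicate 3 of Il33+ WAT-MSC, and 0.0777 when no filter on low RPKM was used.

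Lung Il33+ MSC held Ptgs1 at 6.55, 4.20 and 4.46 RPKM, below every Il33+ WAT-MSC library, a separation found for 23.1% of the genes tested between them. The log2 difference was 1.42 in favour of the adipose cells (SE 0.24, limma adjusted p = 0.00653), with 1.04 in lane 1 and 1.67 in lane 2. Leaving out replicate 2 of the lung stroma moved the adjusted p to 0.0521, and fitting all 15 libraries at once moved it to 0.0529. The highest mean belonged to WAT endothelium, at 12.6, 20.5 and 26.1 RPKM, a range that overlapped Il33+ WAT-MSC. Lung epithelium had 4.0, 6.31 and 10.3 RPKM, under all Il33+ WAT-MSC libraries and overlapping the lung stroma. Between Il33+ WAT-MSC and epithelium, 52.2% of all genes tested did not overlap. Against epithelium the adipose stroma was higher by 1.10 (SE 0.32, limma adjusted p = 0.0226), with adjusted p-values of 0.0533 to 0.073 when replicate 1 or 3 of Il33+ WAT-MSC or replicate 1 or 2 of the epithelium was left out. In the order of means, endothelium and Il33+ WAT-MSC overlapped, and so did epithelium, lung stroma and Il33- WAT-MSC, with a gap between both sets.

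Mesothelial markers followed Ptgs1 only in part. Mesothelium is the cell layer that covers visceral fat and the lung, and 10 of its marker genes were in the table. Without Krt19, which epithelium also expresses, the other 9 summed to 58.0, 144 and 154 RPKM in Il33+ WAT-MSC, 37.3 to 47.2 RPKM in Il33- WAT-MSC, 26.0 to 31.6 RPKM in lung Il33+ MSC, 51.1 to 234 RPKM in endothelium and 8.81 to 9.90 RPKM in epithelium. No marker of the list was at 0 in all libraries of a population. Of the 10 markers 9 passed the filter, Krt19 included and Bnc1 not. In Il33+ against Il33- WAT-MSC Upk1b and Gpm6a were called higher in Il33+ cells, beside 0.923% of all genes. The median difference of the 9 was 2.28. Against lung Il33+ MSC 6 of the 9 were called higher in adipose tissue, beside 2.50% of all genes, with a median of 2.80. The Il33+ library with the lowest mesothelial sum, replicate 1, had the highest Ptgs1 of its population. In epithelium too the library with the lowest sum, replicate 3 at 8.81 RPKM, had the highest Ptgs1. In endothelium the library with the lowest sum, replicate 1 at 51.1 RPKM, had the lowest Ptgs1. The library with the highest sum had the highest Ptgs1 in Il33- WAT-MSC (replicate 2, 47.2 RPKM) and in lung Il33+ MSC (replicate 1, 31.6 RPKM). Epithelium had the lowest sums of the 5 populations. Its mean Ptgs1 of 6.88 RPKM was above those of lung Il33+ MSC (5.07 RPKM) and Il33- WAT-MSC (3.35 RPKM), with overlapping ranges. The part of mesothelial RNA in the Ptgs1 difference was not tested.

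**Figure D3:**
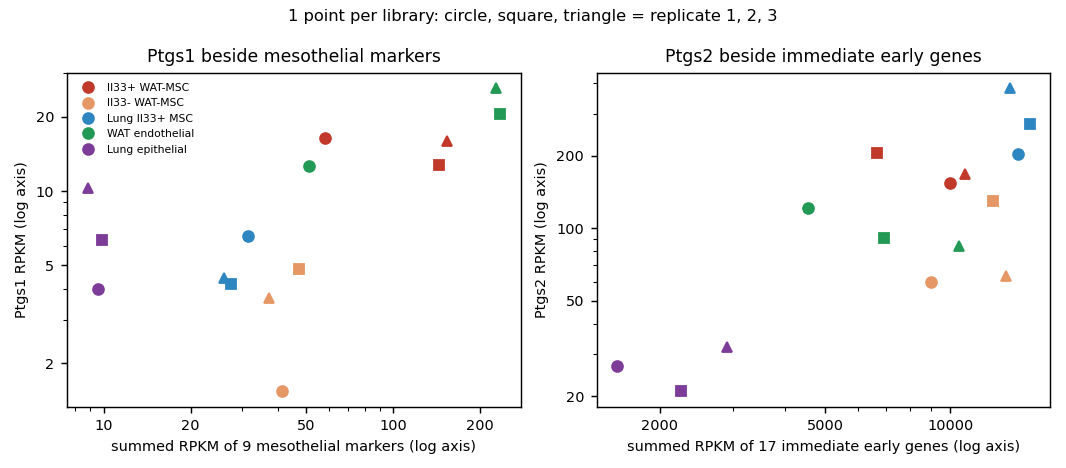
Left, Ptgs1 RPKM against the summed RPKM of 9 mesothelial markers; right, Ptgs2 RPKM against the summed RPKM of 17 immediate early genes; 1 point per library, colours for populations, symbols for replicates, log axes. Il33+ WAT-MSC and endothelial libraries lie at the upper right on the left panel, where replicate 1 of Il33+ WAT-MSC has 16.5 RPKM of Ptgs1 at a marker sum of 58.0, and the 3 epithelial libraries lie at the lower left on the right panel.

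The 250 bases upstream of a RefSeq start site of both cyclooxygenase genes are printed here because their levels were ordered differently across the populations. The Ptgs1 window lies within the Ptgs1 gene span given above, so it precedes an internal start site. Capitals mark the motif GGGCGG, the GC box bound by Sp1-type factors, read on either strand.
Ptgs1 (GRCm38.p6 chr2:36230176-36230425, plus strand): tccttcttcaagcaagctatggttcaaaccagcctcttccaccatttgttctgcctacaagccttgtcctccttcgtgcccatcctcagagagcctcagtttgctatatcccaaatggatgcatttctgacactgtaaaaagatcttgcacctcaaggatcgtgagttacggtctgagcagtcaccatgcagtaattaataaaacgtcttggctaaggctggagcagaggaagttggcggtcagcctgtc
Ptgs2 (GRCm38.p6 chr1:150099781-150100030, plus strand): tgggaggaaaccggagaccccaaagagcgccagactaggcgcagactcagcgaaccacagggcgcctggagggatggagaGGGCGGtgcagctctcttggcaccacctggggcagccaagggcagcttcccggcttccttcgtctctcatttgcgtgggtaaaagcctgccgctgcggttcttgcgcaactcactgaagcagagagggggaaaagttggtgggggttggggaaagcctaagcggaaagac
The Ptgs2 window held 1 GGGCGG and had a GC content of 61.6%, and the Ptgs1 window held none and had 48.0%, against a median of 52.4% over 32851 promoter windows of this length. GGGCGG was present in 32.7% of those windows. Neither window held TATAAA (12.4% of windows), TGACG (17.8%), TGANTCA (6.75%), CCAAT (33.8%) or CACGTG (6.02%). These are matches of letters in 1 window per gene and say nothing of which factors act there.

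Ptgs2 encodes COX-2, the inducible cyclooxygenase (gene at chr1:150100031-150108234, plus strand). It had 155, 205 and 168 RPKM in Il33+ WAT-MSC and 203, 272 and 382 RPKM in lung Il33+ MSC. The mean of lung Il33+ MSC, 285 ± 90.1 RPKM (SD, n = 3), placed Ptgs2 within the top 0.783% of all genes of that population, and the mean of 176 ± 26.3 RPKM in Il33+ WAT-MSC placed it within the top 1.24%. The ranges of both populations overlapped narrowly, and their log2 difference, -0.66 for Il33+ WAT-MSC minus lung, was not called (limma adjusted p = 0.188).

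In Il33- WAT-MSC, Ptgs2 was at 59.7, 130 and 63.4 RPKM. Every Il33+ WAT-MSC library lay above every Il33- library, a separation seen for 17.5% of all genes tested in this comparison. The difference of 1.14 (SE 0.30) had an unadjusted p of 0.00297 and a limma adjusted p of 0.108 and was not called. Replicate 2 of Il33- WAT-MSC was the high one, and without it the difference was 1.49 with an adjusted p of 0.0324. Endothelium gave 121, 91.4 and 84.2 RPKM, all below Il33+ WAT-MSC as for 23.2% of genes that did not overlap between these populations, with a difference of 0.83 (SE 0.27) that was not called either (limma adjusted p = 0.155).

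Lung epithelium had the lowest Ptgs2, 26.8, 20.9 and 31.9 RPKM, still within the top 6.57% of genes of that population. Il33+ WAT-MSC exceeded it by 2.69 on the log2 scale (SE 0.23, limma adjusted p = 1.53e-05) and lung Il33+ MSC by 3.35 (SE 0.27, adjusted p = 1.12e-05), with no overlap of libraries. Of all genes tested, 52.2% and 53.4% did not overlap in these comparisons. Within lanes these differences were 2.69 and 2.66 for the adipose stroma and 2.88 and 3.59 for the lung stroma. In the order of means, lung and adipose Il33+ stroma overlapped, endothelium and Il33- WAT-MSC overlapped, and epithelium stood apart below them.

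Ptgs2 is itself an immediate early gene, and 17 other genes of that class, transcribed within minutes of a stimulus and known to rise during tissue digestion, were measured beside it. Their sum was 6651 to 10826 RPKM in Il33+ WAT-MSC, 8991 to 13598 RPKM in Il33- WAT-MSC, 13909 to 15530 RPKM in lung Il33+ MSC, 4557 to 10507 RPKM in endothelium and 1584 to 2910 RPKM in epithelium. Against epithelium 13 of 17 were called higher in Il33+ WAT-MSC and 16 of 17 in lung Il33+ MSC, the same direction as Ptgs2. Of all genes tested, 23.0% and 24.4% were called higher in stroma there. Between Il33+ and Il33- WAT-MSC limma called 0 of the 17, with 5 at an unadjusted p below 0.05, and their median difference was -0.24 while Ptgs2 was at 1.14. Pearson correlations of Ptgs2 with the single genes over 15 libraries, which share depth and population, ran from 0.267 for Egr3 to 0.861 for Nr4a1. The part of dissociation and sorting in the Ptgs2 levels was not tested.

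Ptges encodes the microsomal prostaglandin E synthase that is often induced together with COX-2 (gene at chr2:30889471-30931020, minus strand). It was at 18.6, 30.4 and 27.7 RPKM in Il33- WAT-MSC, the highest mean of the 5 populations at 25.6 ± 6.17 RPKM (SD, n = 3). Il33+ WAT-MSC had 19.5, 9.85 and 19.1 RPKM, and lung Il33+ MSC 17.0, 12.4 and 14.8 RPKM. The 3 stromal ranges overlapped each neighbour in the order, and the log2 difference of Il33+ minus Il33- WAT-MSC, -0.66, was not called (limma adjusted p = 0.448). Endothelial libraries were spread from 2.64 and 4.33 to 14.7 RPKM.

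Epithelium had 1.31, 1.60 and 2.94 RPKM of Ptges, below every stromal library of both tissues. Of all genes tested against epithelium, 52.2% did not overlap for Il33+ WAT-MSC and 53.4% for lung Il33+ MSC. Il33+ WAT-MSC was higher by 2.52 (SE 0.35, limma adjusted p = 0.000346) and lung Il33+ MSC by 2.44 (SE 0.28, adjusted p = 0.0001). Both calls held under every alternative tried. Ptges therefore separated stroma from epithelium as Ptgs2 did, but its highest mean was in the Il33- adipose cells, the stromal population with the lowest Ptgs2 mean.

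Ptgis encodes prostacyclin synthase, which makes the vasodilator and platelet inhibitor prostacyclin (gene at chr2:167203194-167252150, minus strand). Lung Il33+ MSC gave 22.9, 20.4 and 22.1 RPKM, the highest of the 5 populations. Il33+ WAT-MSC had 8.42, 15.3 and 12.8 RPKM and Il33- WAT-MSC had 9.65, 13.3 and 11.9 RPKM. All lung stromal libraries lay above all adipose stromal libraries. The log2 difference of Il33+ WAT-MSC minus lung was -0.82 and missed the threshold (limma adjusted p = 0.0826), but passed it at 0.0348 without replicate 2 of Il33+ WAT-MSC. Between Il33+ and Il33- WAT-MSC the difference was 0.04 (SE 0.28, adjusted p = 0.982).

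In endothelium, the classical source of prostacyclin, Ptgis was at 2.97, 9.74 and 9.88 RPKM, a range that overlapped both adipose stromal populations and the epithelium. Epithelium had 3.18, 1.16 and 2.86 RPKM. It lay below all stromal libraries, by 1.98 against Il33+ WAT-MSC (SE 0.35, limma adjusted p = 0.00156) and by 2.80 against lung Il33+ MSC (SE 0.29, adjusted p = 5.22e-05). The libraries did not overlap for 52.2% and 53.4% of all genes tested in these comparisons. Since the endothelial libraries held stromal markers as well, how much of their Ptgis came from endothelial cells was not tested.

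Ptgfr encodes the receptor for prostaglandin F2α, a G protein-coupled receptor (gene at chr3:151798610-151837528, minus strand). Lung Il33+ MSC had 16.3, 13.9 and 17.9 RPKM. Il33+ WAT-MSC had 0.95, 2.18 and 0.95 RPKM, Il33- WAT-MSC 0.05, 0.52 and 0.52 RPKM, endothelium 0.01, 1.36 and 0.64 RPKM and epithelium 0.17, 0.33 and 0.48 RPKM. Every lung stromal library was therefore well above the highest library of any other population. The log2 difference of Il33+ WAT-MSC minus lung Il33+ MSC was -2.89 (SE 0.28, limma adjusted p = 0.000281), with -2.80 and -3.10 within the lanes. The lung stroma exceeded epithelium by 3.68 (SE 0.25, adjusted p = 4.36e-06), with 3.89 and 3.58 within the lanes.

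Ptgfr did not pass the filter in the other 3 comparisons, so no test was run there. The 3 Il33+ WAT-MSC libraries lay above the 3 Il33- libraries, at levels near 1 RPKM or below. Of the genes that were tested between them, 17.5% did not overlap. At the transcript length in GENCODE, 0.01 RPKM in the first endothelial library corresponds to an estimated 3 reads and 13.9 RPKM in the second lung stromal library to 4832 reads, so the low values are counted on few reads. Lung stroma also carried signs of other cells, with 10 epithelial markers at 182 to 546 RPKM and 11 macrophage markers at 212 to 266 RPKM. Their part in the Ptgfr level was not tested.

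The windows upstream of a RefSeq start site of Ptges and of Ptgfr are shown with GGGCGG in capitals as before. The Ptges window lies within the Ptges gene span given above, so it precedes an internal start site. Ptges is a terminal synthase gene that separated stroma from epithelium, and Ptgfr is the receptor gene that was high in lung stroma alone.
Ptges (GRCm38.p6 chr2:30903298-30903547, minus strand): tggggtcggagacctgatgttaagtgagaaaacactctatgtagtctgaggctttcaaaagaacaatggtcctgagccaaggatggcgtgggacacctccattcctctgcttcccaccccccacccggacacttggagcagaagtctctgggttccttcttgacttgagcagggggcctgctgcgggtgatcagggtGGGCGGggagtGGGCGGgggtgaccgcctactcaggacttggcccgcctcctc
Ptgfr (GRCm38.p6 chr3:151837529-151837778, minus strand): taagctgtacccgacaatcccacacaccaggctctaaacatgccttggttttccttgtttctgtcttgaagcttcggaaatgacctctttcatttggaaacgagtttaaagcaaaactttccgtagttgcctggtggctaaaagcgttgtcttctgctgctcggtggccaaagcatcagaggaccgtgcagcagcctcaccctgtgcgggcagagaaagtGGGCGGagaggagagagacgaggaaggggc
Ptges held 2 GGGCGG and Ptgfr 1, and the other 5 motifs were found in neither. Of the members with a window in the table, Hpgd also held 1 GGGCGG, and Ptgds held 1 TGANTCA and no GGGCGG. No window was used for Ptgis.

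Hpgd encodes the dehydrogenase that begins prostaglandin breakdown (gene at chr8:56294552-56321046, plus strand). Its means ran only from 6.64 RPKM in lung Il33+ MSC to 12.2 RPKM in Il33- WAT-MSC, and the ranges of all neighbours in that order overlapped. Il33+ WAT-MSC had 9.08, 17.8 and 8.15 RPKM, Il33- WAT-MSC 13.5, 13.03 and 10.1 RPKM and lung Il33+ MSC 5.14, 9.90 and 4.89 RPKM. Endothelium had 20.1, 5.55 and 3.59 RPKM and epithelium 6.93, 16.9 and 8.82 RPKM. The spread within populations was as large as that between them, with replicate 1 highest in endothelium and replicate 2 highest in the Il33+ stroma of both tissues and in epithelium. No comparison called Hpgd, with limma adjusted p-values from 0.219 to 0.923. Without replicate 1 of the endothelium, its highest library, the difference of Il33+ WAT-MSC minus endothelium moved from 0.48 to 1.13 (adjusted p = 0.185) and the F test over 5 populations gave an adjusted p of 0.0627. The direction between Il33+ WAT-MSC and epithelium, 0.11 as measured, turned to -0.19 under median-ratio scaling and -0.14 under quantile normalization.

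Ratios within a library do not depend on how libraries are scaled to each other. Ptgs2 exceeded Ptgs1 in all 15 libraries, by 31.0 to 85.6 times in lung Il33+ MSC, 17.2 to 38.8 times in Il33- WAT-MSC, 9.38 to 16.1 times in Il33+ WAT-MSC, 3.23 to 9.61 times in endothelium and 3.09 to 6.70 times in epithelium. Il33+ WAT-MSC thus lay below both other stromal populations in this ratio, with no overlap. The ratio of Ptgs2 to Hpgd was 27.4 to 78.0 in lung Il33+ MSC and 1.24 to 3.87 in epithelium, and in all adipose populations it was between 4.42 and 23.5.

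Ptges was at 0.0948 to 0.333 times the Hpgd level in epithelium, so the breakdown gene exceeded the synthase gene in all 3 libraries. In Il33- WAT-MSC the ratio was 1.38 to 2.75 and in lung Il33+ MSC 1.25 to 3.30. Il33+ WAT-MSC ran from 0.553 to 2.35 and endothelium from 0.131 to 4.09, across the point of equality. Ptges exceeded Ptgis in all Il33- WAT-MSC libraries (1.93 to 2.32 times) and was below it in all lung Il33+ MSC libraries (0.608 to 0.740 times), a separation of both stromal populations by the balance of the synthases. In Il33+ WAT-MSC this ratio spanned 0.642 to 2.32. The ratios are descriptions of RNA and were not tested.

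**Figure D4:**
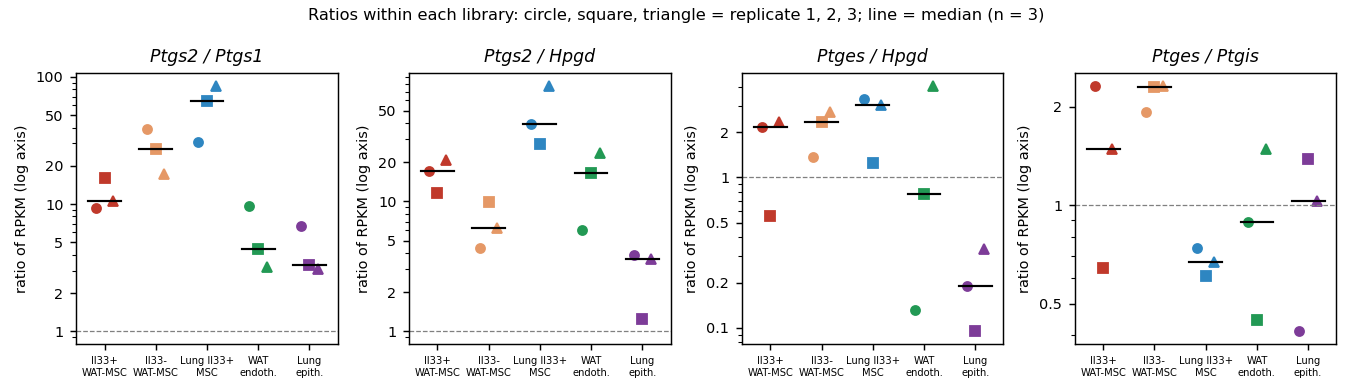
Ratios of RPKM between members within each library, on a log axis, by population; symbols mark replicates 1, 2 and 3, the horizontal line is the median of 3 libraries and the dashed line is a ratio of 1. Ptgs2/Ptgs1 is at least 3.09 in every library, and Ptges/Hpgd is at most 0.333 in the 3 epithelial libraries.

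Correlated levels among the members followed the same division. Over the 15 libraries, on log2(RPKM + 1), Pearson r was 0.837 between Ptgs2 and Ptgis, 0.800 between Ptgis and Ptges, 0.718 between Ptgs2 and Ptgfr and 0.601 between Ptgs2 and Ptges. Ptgs1 had r of 0.129 with Ptgs2 and between -0.248 and -0.0909 with the other members. Hpgd had negative r with all, from -0.418 to -0.176. These points share 5 populations and their depth, so r describes the populations and carries no test.

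Among 9981 genes, those with the pattern most like Ptgs2 over the 15 libraries were Il6 (r = 0.976), Fhl1 (0.953) and Bgn (0.947). Il6, the cytokine interleukin-6, was at 161 to 404 RPKM in lung Il33+ MSC, 94.8 to 160 RPKM in Il33+ WAT-MSC, 27.8 to 94.3 RPKM in Il33- WAT-MSC, 45.6 to 56.8 RPKM in endothelium and 3.62 to 16.2 RPKM in epithelium. Ptgfr was most like Dio2 (r = 0.974), Hhip (0.959) and Tmem132c (0.956), and Dio2, the deiodinase that activates thyroid hormone, was at 12.5 to 24.9 RPKM in lung Il33+ MSC and at most 1.86 RPKM elsewhere. Ptges was most like Dennd2a (0.974), P3h1 (0.969) and Mrc2 (0.966), and Ptgis most like Plac9b (0.955), Pdzrn3 (0.950) and Igfbp4 (0.946). For Ptgs1 the closest genes were 2900026A02Rik (0.859), Gpm6a (0.834), which is on the mesothelial list, and Bmp6 (0.821). Hpgd had no gene above 0.864, with Txlna (0.864), Vsig10 (0.850) and Prr14l (0.808) as the closest.

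Other genes of arachidonate metabolism were taken from 5 lists of 77 symbols, of which 36 were in the table. They cover the release of arachidonate, other prostanoid synthases, prostanoid receptors, transport and breakdown, and the leukotriene and epoxide branches. The F test over 5 populations called 21 of 35 tested, beside the 42.7% of all genes. Of these, Pla2g4a (limma F test adjusted p = 0.000275), Alox5ap (0.01) and Abcc4 (0.0383) were called in none of the 5 comparisons. The Abcc4 call was lost under 12 of 23 alternatives. Pla2g4a, of the release list, was at 15.36, 13.21 and 10.45 RPKM in lung Il33+ MSC, above all other libraries. It was at 7.14 to 9.12 RPKM in Il33+ WAT-MSC and 1.83 to 3.3 RPKM in Il33- WAT-MSC, without overlap. Between Il33+ and Il33- WAT-MSC 1 of 30 was called, lower in Il33+ cells as were 0.651% of all genes. This was Ggt5, which converts leukotriene C4 to leukotriene D4. It was at 4.01, 3.27 and 3.48 RPKM in Il33+ cells and 14.8, 17.8 and 14.3 RPKM in Il33- cells. The libraries did not overlap, as for 17.5% of all genes tested. The log2 difference was -1.85 (SE 0.26, limma adjusted p = 0.00613), and the call held under every alternative.

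Against lung Il33+ MSC 1 of 30 was called, beside 6.00% of all genes called and 2.50% higher in Il33+ WAT-MSC. This was Ptger4, the EP4 receptor for prostaglandin E2. It was at 10.8, 6.55 and 9.18 RPKM in Il33+ WAT-MSC and 3.40, 2.82 and 3.81 RPKM in lung Il33+ MSC, a difference of 1.16 (SE 0.27, limma adjusted p = 0.028). Its adjusted p was 0.051 with no filter on low RPKM, 0.0629 with a term for the lane, 0.162 with all 15 libraries in one fit, and 0.0738 to 0.155 without replicate 1 or 3 of Il33+ WAT-MSC or any 1 replicate of the lung stroma. Il33- WAT-MSC had the highest mean of Ptger4, 10.2 to 17.7 RPKM.

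Against endothelium 2 of 29 were called, both lower in Il33+ WAT-MSC as were 3.34% of all genes. Slco2a1, the prostaglandin transporter that brings prostaglandins into cells for breakdown, was at 59.0, 57.0 and 55.2 RPKM in endothelium and 7.48, 7.42 and 4.48 RPKM in Il33+ WAT-MSC, a log2 difference of -2.99 (SE 0.29, limma adjusted p = 0.001). This call held under every alternative. Mgll, the monoacylglycerol lipase that frees arachidonate from endocannabinoids, was at 26.2, 22.9 and 23.6 RPKM in endothelium and 7.62, 3.25 and 4.88 RPKM in Il33+ WAT-MSC, a log2 difference of -2.07 (SE 0.34, adjusted p = 0.0115). It was no longer called without replicate 3 of Il33+ WAT-MSC (0.0617) or replicate 2 of the endothelium (0.0904), or when each transcript was tested on its own (0.353). Thus the members themselves did not separate Il33+ WAT-MSC from endothelium at the threshold, while the uptake transporter did. Few genes higher in stroma passed here, with 0.565% of all genes called higher in Il33+ WAT-MSC. Of the 10 stromal markers 1 was called, Lum. Yet 9 had an unadjusted limma p below 0.05 and 7 did not overlap, beside 23.2% of all genes tested. A missing call therefore says little about members that were higher in stroma.

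Against lung epithelium 19 of 33 pathway genes were called for Il33+ WAT-MSC, 9 higher and 10 lower in stroma, and 20 of 34 for lung Il33+ MSC, 10 in each direction, beside the 41.0% and 43.0% of all genes. Of the receptors tested, 4 of 5 were called for Il33+ WAT-MSC and 3 of 4 for lung Il33+ MSC, all higher in stroma. Ptger1, the EP1 receptor, was called in neither, with mean RPKM of 1.82 (Il33+ WAT-MSC), 3.75 (lung Il33+ MSC) and 1.83 (epithelium), and its values are uncertain because the strand setting of the counting is not given in the sources used here. Ptger4, the thromboxane receptor Tbxa2r and Ptgfrn, a negative regulator of the prostaglandin F2α receptor, were higher in both stromal populations, by 2.30, 1.94 and 3.08 in Il33+ WAT-MSC and by 1.14, 1.34 and 2.70 in lung Il33+ MSC. The Ptger4 call in lung was lost without replicate 1 or 3 of the lung stroma or replicate 3 of the epithelium (limma adjusted p = 0.0597 to 0.0772). The prostacyclin receptor Ptgir was higher in Il33+ WAT-MSC by 2.08 and did not pass the filter in the lung comparison. Dpep1, a dipeptidase that converts leukotriene D4 to E4, was among the most abundant genes of stroma, at 234 to 454 RPKM in Il33+ WAT-MSC and 506 to 673 RPKM in lung Il33+ MSC against 18.8 to 26.3 RPKM in epithelium.

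The genes higher in epithelium came from the release, synthase, transport and leukotriene lists and none from the receptors. Pla2g1b, a secreted phospholipase, was at 43.7, 19.4 and 27.6 RPKM in epithelium and at most 0.56 RPKM in the stroma of either Il33+ population. Pla2g16, an intracellular phospholipase abundant in adipocytes, and Faah, which frees arachidonate from anandamide, differed by -2.10 and -2.54 in Il33+ WAT-MSC minus epithelium and by -2.41 and -2.64 in lung Il33+ MSC minus epithelium. Ptges3, a co-chaperone with prostaglandin E synthase activity, was at -1.18 and -1.07, and the carbonyl reductases Cbr1 and Cbr3 were at -2.03 and -1.57 in the adipose and at -2.54 and -2.65 in the lung stroma. Slco2a1 was lower in stroma too, at -1.30 and -0.99, but the lung call was lost without replicate 1 or 3 of the lung stroma or replicate 2 or 3 of the epithelium (limma adjusted p = 0.0566 to 0.137) and at a pseudocount of 0.1 (0.0508). Akr1c14, an aldo-keto reductase, and Mgst2, a glutathione transferase that can make leukotriene C4, were at -3.03 and -2.47 in the adipose and at -3.09 and -2.47 in the lung stroma, and the epoxide hydrolase Ephx1 was at -0.92 and -1.14. The adipose call of Ephx1 was lost without replicate 3 of Il33+ WAT-MSC or replicate 2 or 3 of the epithelium (limma adjusted p = 0.0512 to 0.0657).

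The other called genes were higher in stroma. Mgll was at 1.16 in the adipose and 1.45 in the lung stroma, and the cytochrome P450 gene Cyp2j9 was at 1.61 and 1.29. Ggt5 (1.495) and Cyp2j6 (1.01) were called for Il33+ WAT-MSC, and the phospholipases Pla2g2e (1.86) and Pla2g15 (1.57) and the diacylglycerol lipases Dagla (0.74) and Daglb (0.76) for lung Il33+ MSC. Of these, Mgll and Cyp2j6 in the adipose comparison and Dagla and Daglb in the lung comparison lost their calls under several alternatives, with limma adjusted p-values up to 0.181, and median-ratio scaling alone took Cyp2j6 to 0.0617, Dagla to 0.0786 and Daglb to 0.0586. The lung call of Cyp2j9 was lost without replicate 2 of the lung stroma (0.0576), and that of Mgll when each transcript was tested on its own (0.11). Epithelium and stroma thus each held part of the pathway at a higher level. Ptgs2, Ptges, Ptgis, the called receptors, Dpep1, Mgll and Cyp2j9 were among those on the stromal side. On the epithelial side were Cbr1, Cbr3, Slco2a1, Ptges3, Akr1c14, Pla2g1b, Pla2g16, Faah, Mgst2 and Ephx1. Both sides held genes of release and of synthesis. Hpgd was called in neither comparison with epithelium (limma adjusted p = 0.851 for Il33+ WAT-MSC and 0.219 for lung Il33+ MSC).

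**Figure D5:**
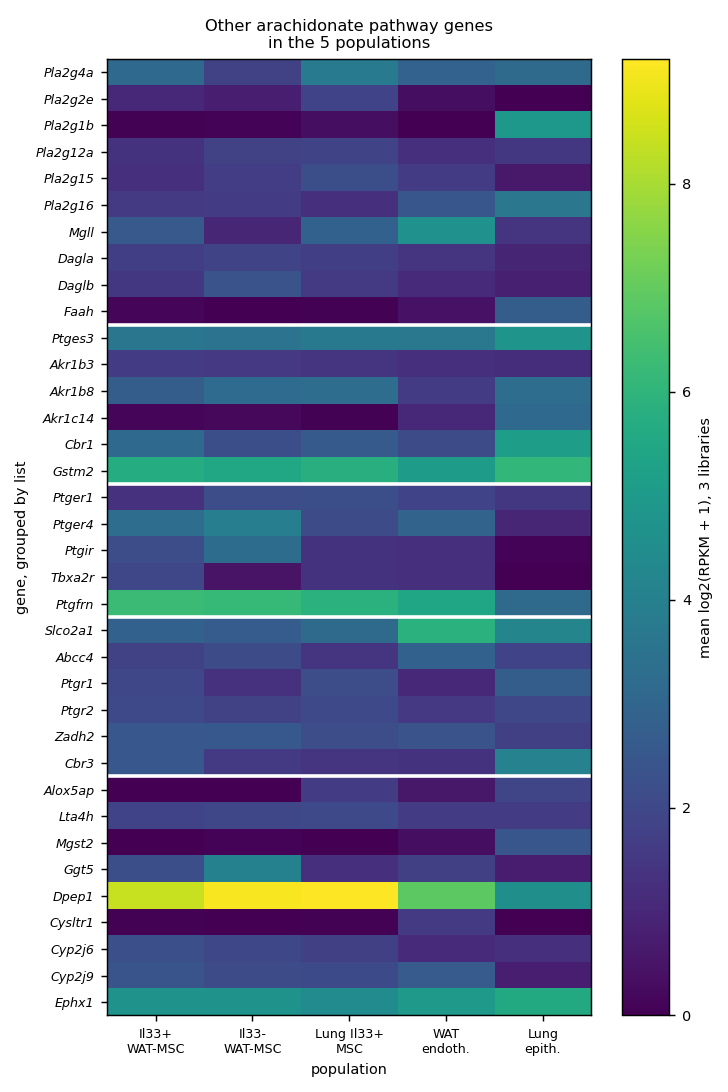
Mean log2(RPKM + 1) of 3 libraries for the 36 other arachidonate pathway genes in the table (rows, split by white lines into release, synthases, receptors, transport and breakdown, and leukotriene and epoxide branches) in the 5 populations (columns). Slco2a1 and Mgll are brightest in WAT endothelium, Pla2g1b, Cbr1 and Cbr3 in lung epithelium, and Dpep1 in the 3 stromal columns.

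The comparisons with epithelium carry a scaling term. Scgb1a1, the secretoglobin of club cells, took up an estimated 7.65% to 9.90% of the reads of the epithelial libraries, and RPKM is relative to all mapped reads. The median log2 difference of all genes tested was 0.17 for Il33+ WAT-MSC and 0.13 for lung Il33+ MSC against epithelium, and -0.08 and -0.06 after median-ratio scaling. For Il33+ WAT-MSC that scaling moved the share of calls higher in stroma from 56.0% to 44.8% of calls. All 8 member calls against epithelium kept their direction and stayed called under both other scalings. The median of all genes was also shifted against endothelium, by 0.18, and it was 0.02 after median-ratio scaling.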

How the data were processed

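RNA-seq was run on 15 libraries, 3 from each of 5 sorted mouse cell populations. Total RNA was amplified with an Ovation kit, and according to the submitters' processing notes reads were aligned with TopHat2 in Partek to mm10. The authors deposited RPKM for each transcript. The quantifier, its strand setting and the filter on low values are not given in the sources used here, but only 41 of the deposited transcripts (0.323%) are below 1 RPKM in every library. RPKM are not counts, so no counting interval was set. All value columns were matched to a sample (0 were not).

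RPKM was summed per gene symbol. Linear models of log2(RPKM + 1) were made with limma 3.58.1 (eBayes with trend, R 4.3.3) over all genes that reached 1 RPKM in no fewer than 3 libraries, separately for each of 5 comparisons, and with an F test over all 15 libraries. P-values were adjusted by the Benjamini-Hochberg method at a threshold of 0.05. The fit was tested on simulated data with 200 changed genes. Summaries and plots used matplotlib 3.10.9, scipy 1.17.1, pandas 2.3.3 and numpy 2.4.6 under Python 3.11.15. Promoter windows and gene positions are from RefSeq (GRCm38.p6), and gene strands and transcript lengths are from GENCODE.

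The members, gene lists and tests were chosen with earlier results of these data known. Named are the 7 members, pathway genes past the threshold and the 3 genes most correlated with each member. Neighbouring populations were said to overlap where the ranges of their 3 libraries did. Alternatives were a pseudocount of 0.1, no filter or a minimum of 5 RPKM, terms for replicate number or lane, median-ratio and quantile scaling, each transcript alone, all libraries in one fit, and each library left out. No label says whether a replicate number pairs libraries of different populations, so the main tests left them unpaired. Same-numbered libraries did not deviate together throughout (a correlation above 0.1 for every pair was required). That rule cannot show that the libraries are unpaired.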

Additional observations from a re-analysis of the deposited data

How the results depend on the processing

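Over 33 results on the members and 540 alternatives, 516 kept their direction and side of the threshold. The 9 lost calls were all of Ptgs1, and the 3 gained were of Ptgs2 and Ptgis. Leaving out a library, limma called 49 to 121 genes and 0 to 2 members between Il33+ and Il33- WAT-MSC (133 and 1 with all libraries), 191 to 447 genes and 1 to 3 members against lung Il33+ MSC (513 and 2), 56 to 261 genes against endothelium (338), 2364 to 3066 genes against epithelium (3800), and 0 members against endothelium throughout. The lowest of these counts came without replicate 1 of Il33+ WAT-MSC, replicate 2 of lung Il33+ MSC, replicate 2 of the endothelium and replicate 2 of the epithelium. Between lung Il33+ MSC and epithelium 3 or 4 members were called, because Ptgfr fell under the filter without a lung stromal library.

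With no filter on low RPKM 45 genes and 0 members were called between Il33+ and Il33- WAT-MSC. With all 15 libraries in one fit 331 genes and 1 member were called against lung Il33+ MSC and 803 genes against endothelium, where 39.2% of calls were then higher in Il33+ WAT-MSC against 14.5%. A replicate block called 232 genes and 2 members between Il33+ and Il33- WAT-MSC, Ptgs2 included (adjusted p = 0.015). Same-numbered libraries correlated at 0.044 to 0.106 there, each library best with its own number (a hint from the data, not the design). The same held between lung Il33+ MSC and epithelium, at 0.051 to 0.136. In the remaining comparisons same-numbered libraries correlated at -0.087 to 0.155. The cause of these changes was not tested.

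Differences that changed sign were small and uncalled. Leaving out a library, Ptgis ran from -0.13 to 0.26 and Hpgd from -0.45 to 0.0704 between Il33+ and Il33- WAT-MSC, Ptges from -0.081 to 0.38 against lung Il33+ MSC, and Hpgd from -0.22 to 0.45 against epithelium. Hpgd against epithelium was also -0.19 under median-ratio and -0.14 under quantile scaling. Of the pathway genes, 64 calls gave 996 alternatives with the call kept and 63 with it lost. Alternatives in which a gene fell under the filter were not tested and are not counted. Against epithelium Faah, Mgst2 and Tbxa2r were tested in 11 alternatives, while Cbr1 was tested in 15. With 3 libraries a population, and no read counts used here, the precision of genes near 1 RPKM is limited.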
